A study of Mus musculus with 25 samples.

Results

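Continuous 30% calorie restriction was compared with intermittent calorie restriction in the mammary fat pad of formerly obese mice, using DNA methylation measured by reduced representation bisulfite sequencing (RRBS). The comparison took 12 of the 25 libraries of the series: 3 MCR libraries (Mediterranean-style diet, 30% restricted, numbers 85, 95 and 96) and 4 LFCR libraries (low-fat diet, 30% restricted, numbers 63, 67, 69 and 72) as the continuous group, against 5 ICR libraries (numbers 102, 103, 105, 106 and 112). All 12 came from wild-type C57BL/6N mice that were first made obese on a 60% high-fat diet (D12492) and then moved to the restricted diet. E0771 cells, a mouse mammary cancer line, were injected into the 4th fat pad 25 weeks after the first randomization, and the uninjected 9th pad was taken at endpoint, so all of these mice had received tumour cells in another pad. The amount and schedule of the intermittent restriction, the mice's age and sex, and the time on each diet are not given in the labels. A continuous and an intermittent diet therefore differ here in several ways at once (schedule, diet composition and perhaps total intake), which cannot be told apart. Each library is called by the number in its label and is taken as 1 mouse. The labels do not say whether DNA was pooled, so the p-values measure the spread between these libraries.

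CpGs were kept on chromosomes 1 to 19 where the deposited average coverage was at least 10 and where at least 5 continuous and 4 ICR libraries had a value, which left 194866 of the 283974 CpGs in the table. Median coverage of the kept CpGs was 40.9 reads, averaged over 21 libraries, and the depth of a single library is unknown. Missing values were counted before this filter, over the 273804 CpGs on chromosomes 1 to 19. The share of those with a value was between 52.4% and 97.5% in the 7 continuous libraries. It was between 56.2% and 98.2% in the 5 ICR libraries. At CpGs under 5% in Control mice, the 12 libraries lay between 1.2% and 1.94%. At the same sites 4 libraries outside this comparison (Obese 27, 28 and 40, and LFD 46) lay between 48.8% and 49.2%, and they were left out of every value given here. The methylation table holds no expression values, so the labelled tissue could not be checked against expressed markers. The labels give the tissue as mammary and also list E0771 under cell line, and the library titles hold the word tumor. The labels thus do not agree on the tissue, and the tissue label was followed here.

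Cytosines that precede a guanine carry most DNA methylation in mammals. CpG islands at gene starts are mostly unmethylated, gene bodies and the stretches far from islands (the "open sea") are mostly methylated, and sites of intermediate level often lie in enhancers and in genes used by only some of the cells of a tissue. A fat pad holds adipocytes, mammary epithelium, fibroblasts, vessels and blood cells. A level in bulk DNA is the methylated share of reads over all of these, and a change within cells cannot be told apart here from a change in the mix of cells. Levels are given as percent methylated and differences in percentage points, continuous minus ICR unless said otherwise.

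Methylation was lower on average under continuous restriction. Over the 112510 CpGs with a value in all 12 libraries, mean methylation was 46.14%, 45.82% and 46.55% in MCR mice 85, 95 and 96 and 45.88%, 46.42%, 51.33% and 53.66% in LFCR mice 63, 67, 69 and 72. In ICR mice 102, 103, 105, 106 and 112 it was 51.88%, 50.04%, 52.72%, 52.89% and 53.94%. The 3 MCR mice and LFCR mice 63 and 67 lay below every ICR mouse, while LFCR mice 69 and 72 lay within the ICR range. The continuous mean was 47.97 ± 3.17% (SD, n = 7) and the ICR mean 52.30 ± 1.46% (SD, n = 5), a difference of -4.32 points (two-sided exact permutation test over all assignments of the 12 mice, p = 0.0303, with 0.00253 the smallest p possible). The p lay between 0.05195 and 0.06667 when any 1 of ICR 105, 106 or 112, LFCR 63 or 67, or MCR 85, 95 or 96 was left out, and the difference then lay between -4.22 and -3.90 points. For orientation, the 5 Control mice averaged 55.5 ± 1.89% over the same CpGs.

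**Figure D1:**
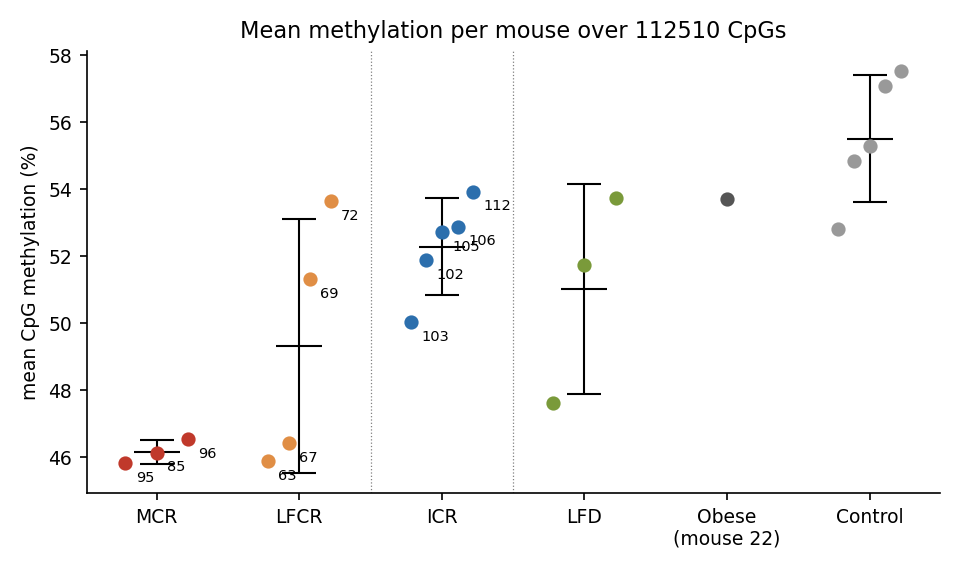
Mean methylation per mouse (vertical axis, percent, not starting at 0) over 112510 CpGs, with 1 point per mouse, mouse numbers beside the calorie-restricted groups, and black bars for the group mean and SD. The 3 MCR mice lie between 45.82% and 46.55%, the LFCR mice split between 45.88% and 53.66%, and the ICR mice lie between 50.04% and 53.94%; LFD, Obese mouse 22 and Control are shown for orientation.

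The pair of continuous diets did not contribute alike. MCR mice averaged 46.17 ± 0.362% (SD, n = 3), -6.12 points from ICR. The exact permutation p was 0.0357, which is the smallest 3 against 5 mice can give, and 0.107 after Benjamini-Hochberg adjustment over the 3 pairs of diets. LFCR mice averaged 49.32 ± 3.79% (SD, n = 4), -2.97 points from ICR (exact permutation p = 0.190, adjusted 0.286). MCR minus LFCR was -3.15 points (exact permutation p = 0.343), a difference within the spread of the LFCR mice. The median SD between mice per CpG was 7.67 points in the continuous group and 5.89 points in the ICR group, with 5.56 points within MCR and 6.88 points within LFCR.

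The lower level was seen in every sequence class, and its size followed the level at which a CpG stood in Control mice. CpGs at 50 to 70% in Control averaged 45.7 ± 6.55% in continuous mice and 54.4 ± 3.24% in ICR mice (SD, n = 7 and 5), a difference of -8.72 points. The difference was -6.57 points at 70 to 90%, -3.90 points at 30 to 50%, -3.50 points at 90 to 100% and -0.902 points at 10 to 30%. The exact permutation test gave an adjusted p of 0.0364 in each of these 5 bins. In the lowest bin, 0 to 10%, continuous mice averaged 2.65 ± 0.255% and ICR mice 2.78 ± 0.110% (difference -0.133 points, exact permutation p = 0.318). There 6 of the 7 continuous mice lay below every ICR mouse and MCR 96, at 3.20%, above all of them. Without MCR 96 the difference was -0.223 points (exact permutation, adjusted p = 0.026). MCR 96 stands out by the measure under test, so this value says how the result depends on it and is not evidence for a difference. By distance from CpG islands, the difference was -2.73 points in islands, -3.96 points in shores, -5.14 points in shelves and -5.01 points in the open sea (exact permutation, adjusted p = 0.0303 in each). As a share of the ICR level this was a loss of 12.6% in islands and 7.38% in the open sea. Sites just upstream of a start (the annotation TSS200) had 11.3 ± 1.0% in continuous mice and 12.9 ± 0.367% in ICR mice, and gene bodies 52.5 ± 3.39% and 57.1 ± 1.57%. Each of the 19 chromosomes had a lower mean in continuous mice, by -4.93 points on chromosome 10 at one end and -2.67 points on chromosome 13 at the other. Each of these class tests that passed by island distance, gene feature or Control level lost significance without any 1 of several mice.

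**Figure D2:**
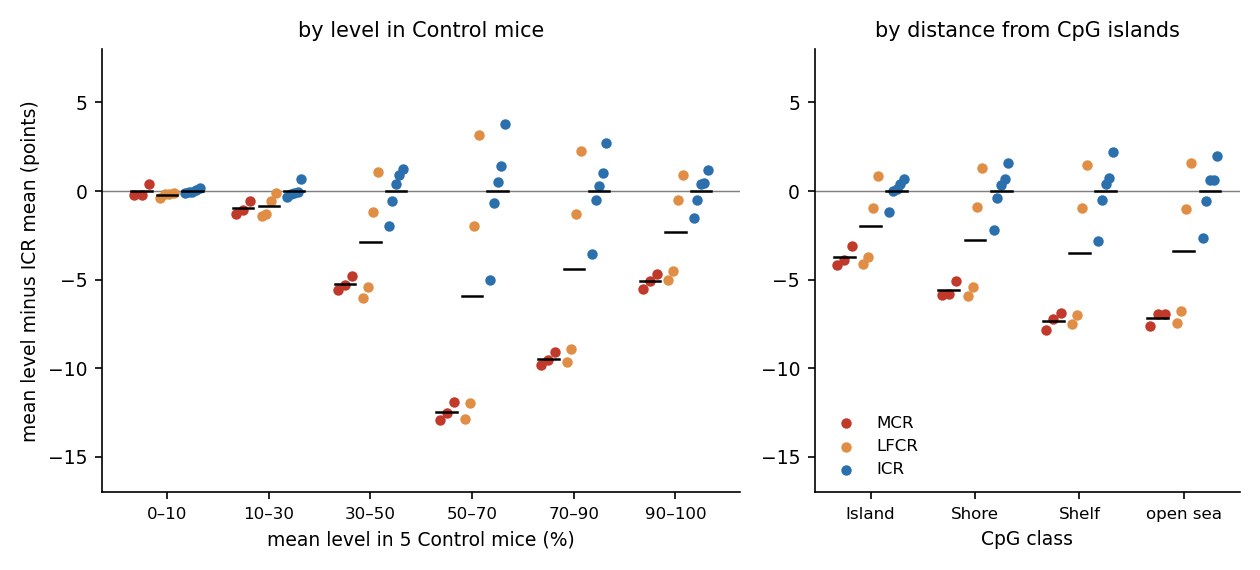
Mean level of each mouse minus the ICR mean (vertical axis, percentage points), by the CpG's level in Control mice (left) and by distance from CpG islands (right), with 1 point per mouse and a black bar for the group mean. At CpGs of 50 to 70% in Control the MCR mice and LFCR mice 63 and 67 lie more than 10 points below the ICR mean, while at 0 to 10% MCR 96 alone lies above the ICR mice and the other 6 continuous mice lie just below them.

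Single features were tested with limma's moderated test over the 2 groups, two-sided, with Benjamini-Hochberg adjustment over all features of a kind and calls at an adjusted p under 0.05. Of the 194866 CpGs, 0 were called (0%), although 31551 had an unadjusted p under 0.05, 28016 of them lower and 3535 higher. The smallest adjusted p was 0.243. Promoters were taken as CpGs that the deposited annotation places in the 5′UTR, the 1st exon or upstream of a gene's start, with at least 3 such CpGs. Such CpGs can lie away from the start itself. Of 3766 promoters, 1 was called (0.0266%), and 868 had an unadjusted p under 0.05 (823 lower, 45 higher). Clusters were runs of at least 5 CpGs with at most 100 bases between neighbours. Of 9349 clusters 0 were called (0%), with 3163 at an unadjusted p under 0.05 and a smallest adjusted p of 0.112. The direction was lower in 72.8% of CpGs, 77.1% of promoters and 82.4% of clusters. For continuous minus ICR with all 12 mice, Rgs8 was the only gene with a call; every other gene value given for that comparison did not pass the adjusted test.

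Rgs8, a GTPase-activating regulator of G protein signalling, had the 1 called promoter. Its 6 CpGs in the 5′UTR and 1st exon, chr1:153653158-153653346 (mm10), stood at 13.2% and 12.3% in MCR mice 85 and 96 and at 10.6%, 12.8%, 15.2% and 15.0% in LFCR mice 63, 67, 69 and 72. ICR mice 103, 105, 106 and 112 had 22.2%, 25.3%, 24.2% and 21.9%; MCR 95 and ICR 102 had too few of these CpGs for a value. The groups did not overlap, and LFCR 72, whose overall mean was like that of ICR mice, stood with the other continuous mice. The means were 13.2 ± 1.72% in continuous mice (n = 6) and 23.4 ± 1.63% in ICR mice (n = 4), a difference of -10.25 points (SE 1.08, limma adjusted p = 0.0175). The adjusted p was 0.0602, 0.0659 and 0.0546 without ICR 105, 106 and 112 and 0.0803 and 0.0812 without MCR 85 and 96, and the difference was then between -10.75 and -9.62 points.

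Other promoters at the low end were those of L3mbtl1, a chromatin-binding Polycomb-group protein whose human counterpart is imprinted, Sult2b1, a sulfotransferase acting on cholesterol and other hydroxysteroids, and Tspear. L3mbtl1 (6 CpGs, chr2:162944571-162948209) had 44.0%, 35.4% and 43.1% in MCR mice and 45%, 51.3%, 40.7% and 48.5% in LFCR mice, against 58.9%, 56.0%, 60.3%, 60.0% and 60.8% in ICR mice. No continuous mouse reached the lowest ICR mouse (difference -15.18 points, SE 2.33, limma adjusted p = 0.0761). Sult2b1 (29 CpGs at several starts between positions 45742084 and 45783757 of chromosome 7) had 10.0%, 12.4% and 14.0% in MCR mice and 14.7%, 12.5%, 15.4% and 18% in LFCR mice, against 23.1%, 18.4%, 22.6%, 25.1% and 23.4% in ICR mice (difference -8.64 points, SE 1.43, limma adjusted p = 0.0818). Its groups also did not overlap, though LFCR 72 and ICR 103 lay close together. Tspear had 43.2 ± 1.86% in continuous mice and 55.2 ± 4.50% in ICR mice (SD, n = 6 and 5).

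Dctn1, which encodes the large subunit of the dynein activator dynactin, had smaller but even differences: 39.0%, 41.6% and 40.5% in MCR mice and 39.5%, 39.6%, 43.9% and 42.3% in LFCR mice, against 45.1%, 46.0%, 48.3%, 46.0% and 45.1% in ICR mice over 17 CpGs (difference -5.18 points, SE 0.94, limma adjusted p = 0.122). Taf6l, a subunit of a histone acetyltransferase complex, had 15.2 ± 1.68% in continuous mice and 22.5 ± 2.72% in ICR mice. Chmp6, an ESCRT-III component of endosomal sorting, had 12.9 ± 4.18% and 22.9 ± 2.61%, and the noncoding locus 1700030C10Rik 16.6 ± 3.44% and 25.6 ± 2.55%, in the same order. Wfs1, a membrane protein of the endoplasmic reticulum, had 41.9 ± 3.11% in continuous mice and 49.6 ± 2.05% in ICR mice over 12 CpGs, and 0.185 points of difference with its 1st exon CpGs left out. The 4 tested CpGs in a RefSeq window of Wfs1 averaged 0.738% in continuous mice and 0.366% in ICR mice. Slc6a5, a glycine transporter, had 5.12 ± 0.92% in continuous mice and 8.74 ± 1.53% in ICR mice. Of these 10 promoters of smallest p, 8 had no overlap between the groups. Over all 3766 promoters, 42 (1.12%) had every continuous mouse below every ICR mouse and 0 had every continuous mouse above, and 0.0266% were called. The 10 were picked for their difference, so the count is a description.

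The promoter windows of Sult2b1 and Dctn1 are shown because several of the measured CpGs lie in them, close to a RefSeq start. Each runs from 250 bases before to 50 bases after the start (RefSeq, GRCm38.p6, the assembly that mm10 names), and capitals mark the CpGs tested here. The Sult2b1 window is chr7:45759563-45759862, minus strand, and the Dctn1 window chr6:83185696-83185995, plus strand.
Sult2b1: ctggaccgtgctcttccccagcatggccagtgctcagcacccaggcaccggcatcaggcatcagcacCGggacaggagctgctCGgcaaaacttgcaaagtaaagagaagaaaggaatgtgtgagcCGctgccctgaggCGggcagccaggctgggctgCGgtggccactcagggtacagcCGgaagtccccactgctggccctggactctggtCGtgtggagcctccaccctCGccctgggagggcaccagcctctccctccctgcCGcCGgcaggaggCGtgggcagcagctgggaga
Dctn1: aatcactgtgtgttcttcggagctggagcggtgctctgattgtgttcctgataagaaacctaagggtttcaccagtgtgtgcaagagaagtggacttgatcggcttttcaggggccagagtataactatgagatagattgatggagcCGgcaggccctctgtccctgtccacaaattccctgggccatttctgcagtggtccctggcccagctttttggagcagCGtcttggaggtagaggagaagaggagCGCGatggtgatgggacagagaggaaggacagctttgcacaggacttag
All 11 marked CpGs of Sult2b1 had a lower mean in continuous mice, from 4.08% against 13.0% in ICR mice at position -35 from the start to 13.8% against 24.1% at position -110. The CpG of the Dctn1 window farthest upstream stood at 44.0 ± 10.6% in continuous mice and 63.8 ± 8.61% in ICR mice (SD, n = 7 and 5), and the one nearest upstream of the start at 25.5 ± 5.92% and 29.0 ± 4.80%. None of these CpGs passed the test by itself.

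Fewer promoters pointed upward, and in all 10 of smallest p in that direction the groups overlapped. Edn2, which encodes the vasoconstrictor peptide endothelin 2, had 22.2% and 19% in MCR mice and 21.8%, 20.9%, 17.2% and 17.8% in LFCR mice, against 13.2%, 18.1%, 11.3%, 13.9% and 14.8% in ICR mice (difference 5.54 points, SE 1.34, limma adjusted p = 0.161). ICR 103 overlapped the continuous mice there. Foxf1, a forkhead transcription factor of mesenchyme, had 33.2%, 33.0% and 33.1% in MCR mice and 32.1%, 30.2%, 28.6% and 23.7% in LFCR mice, against 26.9%, 25.9%, 24.3%, 24.5% and 23.1% in ICR mice over 24 CpGs (difference 5.64 points, SE 1.61, limma adjusted p = 0.161). LFCR 72 fell among the ICR mice. Kcnj11, the pore subunit of the ATP-sensitive potassium channel, had 44.9 ± 5.68% in continuous mice and 37.1 ± 1.03% in ICR mice over 20 CpGs, most of the difference coming from MCR mice (47.6%, 50.8% and 51.6%), and -0.964 points with its 1st exon CpGs left out.

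Arid5a, a DNA- and RNA-binding protein of immune cells, had 53.9 ± 2.22% and 49.3 ± 2.65%, Galnt10, which starts O-linked glycosylation, 84.6 ± 4.87% and 76.2 ± 4.63%, and P4htm, a prolyl hydroxylase of the endoplasmic reticulum, 4.0 ± 1.34% and 1.01 ± 1.71%, each with continuous mice before ICR mice (SD, n = 7 and 5). The 1 tested CpG in the RefSeq window of Arid5a stood at 0.42% in continuous mice and 0% in ICR mice. That in a RefSeq window of Galnt10 stood at 22.1 ± 27.7% and 2.66 ± 2.76%, in the same order. The uncharacterised 2010300C02Rik had 67.6 ± 3.84% in continuous mice and 59.5 ± 3.54% in ICR mice, and Gm26592 17.9 ± 2.45% and 12.7 ± 2.39%. A promoter level combines each mouse's deviation at the CpGs it has with the mean level of the set, which can take a value near 0 slightly below it, as at P4htm.

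**Figure D3:**
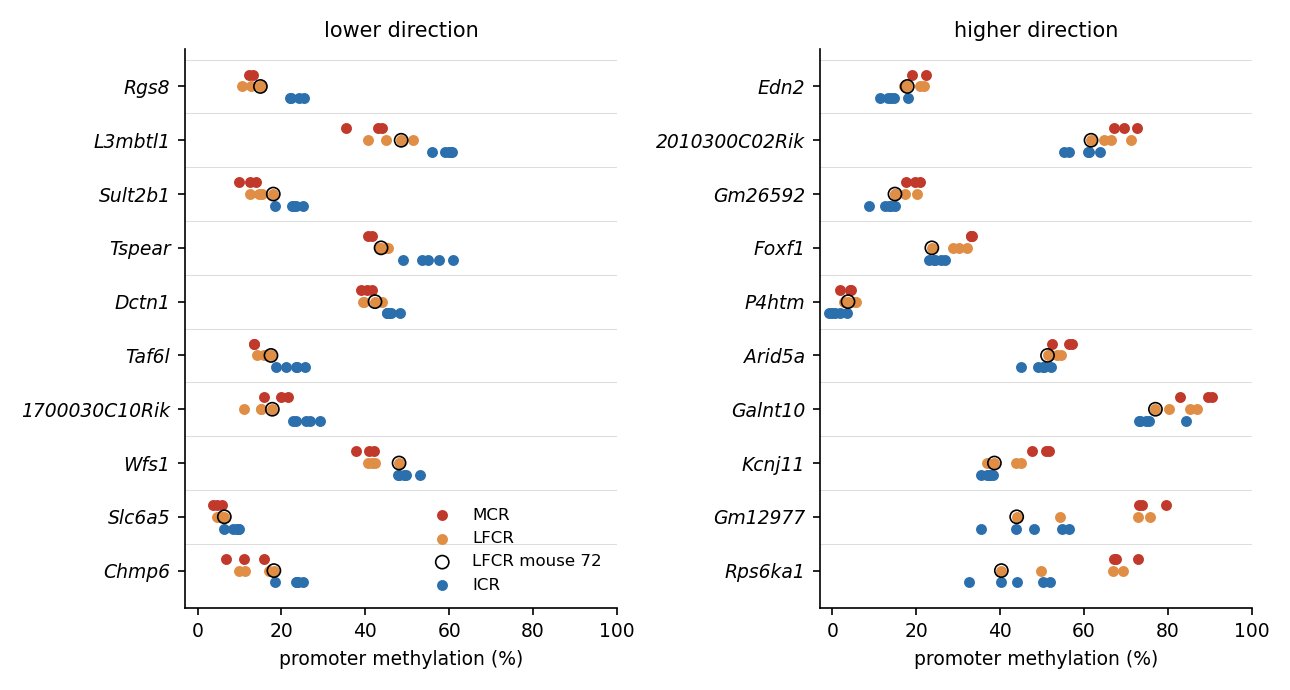
Promoter methylation per mouse (horizontal axis, percent) for the 10 promoters of largest difference or smallest p in the lower direction (left) and in the higher direction (right), with 1 point per mouse and LFCR mouse 72 circled. For Rgs8 the continuous mice lie between 10.6% and 15.2% and the ICR mice between 21.9% and 25.3%; on the right LFCR 72 lies at or near the ICR mice in Foxf1, Kcnj11 and Rps6ka1.

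Rps6ka1, which encodes the kinase RSK1 downstream of ERK, carried differences of opposite sign along 1 gene. Its 12 promoter CpGs, 11 of them shared with the overlapping Gm12977, had 67.6%, 72.9% and 67.1% in MCR mice and 66.9%, 69.4%, 49.7% and 40.3% in LFCR mice, against 50.2%, 51.8%, 40.1%, 44.0% and 32.6% in ICR mice (difference 18.24 points, SE 5.86, limma adjusted p = 0.161). LFCR mice 69 and 72 lay among the ICR mice. Of these 12 CpGs, that in a CpG island (chr4:133887673) stood at 0% in MCR, LFCR and ICR mice and at 0.556% in Control mice. The others lay in the open sea. Around a RefSeq start, CpGs from 204 bases inside the gene to position -15 stood at 54.4% to 76.3% in continuous mice and 38.1% to 49.3% in ICR mice. CpGs annotated to the gene body went both ways. That at position -11334 stood at 68.8% in continuous mice and 51.2% in ICR mice. A cluster of 5 CpGs at chr4:133865388-133865524, 7511 to 7647 bases downstream of that start, had a lower mean in continuous mice. It had 57.8%, 39.9% and 53.0% in MCR mice and 58.5%, 58.8%, 56.5% and 70.5% in LFCR mice, against 71.4%, 65.0%, 70.1%, 71.4% and 76.3% in ICR mice (difference -14.40 points, SE 4.02, limma adjusted p = 0.112). Control mice averaged 31.6% in the promoter and 79.2% in this cluster. The window at that start, chr4:133872986-133873285 on the minus strand (RefSeq, GRCm38.p6), is shown because it holds CpGs of unlike difference, from 28.1% in continuous mice and 26.6% in ICR mice at position -140 to 52.2% and 36.5% at position -71; capitals mark the 5 tested CpGs.
Rps6ka1: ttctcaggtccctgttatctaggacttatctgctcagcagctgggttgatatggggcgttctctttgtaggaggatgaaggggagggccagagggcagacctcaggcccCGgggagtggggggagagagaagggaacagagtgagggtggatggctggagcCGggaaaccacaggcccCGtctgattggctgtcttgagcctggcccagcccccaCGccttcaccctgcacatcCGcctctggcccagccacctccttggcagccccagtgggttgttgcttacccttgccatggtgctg

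**Figure D4:**
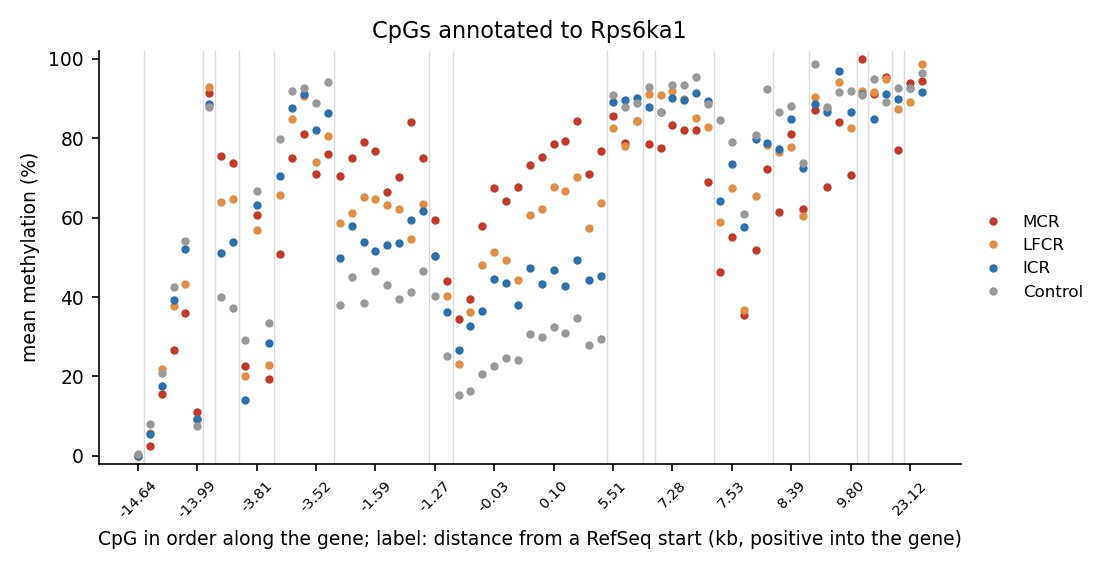
Mean methylation (vertical axis, percent) of each tested CpG annotated to Rps6ka1, in order along the gene with the distance from a RefSeq start in kb on the horizontal axis, for MCR, LFCR, ICR and Control mice; grey lines mark gaps of more than 100 bases. MCR lies above LFCR and ICR at the CpGs next to the start and at those 1st exon CpGs that lie upstream of it, and below ICR at the 5 CpGs from 7511 to 7647 bases into the gene.

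Among clusters, the 5 of largest difference or smallest p in the lower direction lay in Plaur, which encodes the urokinase receptor, Gm20388, Kifc3, a minus-end kinesin, 1700092K14Rik and L3mbtl1. Plaur (11 CpGs in the gene body, chr7:24475161-24475333) had 40.4%, 45.6% and 53.1% in MCR mice and 47.5%, 52.1%, 59.9% and 62.8% in LFCR mice, against 75.2%, 70.4%, 69.5%, 73.8% and 65.9% in ICR mice (difference -19.33 points, SE 3.60, limma adjusted p = 0.112). The groups did not overlap. Kifc3 (8 CpGs) had 13.2 ± 5.50% in continuous mice and 27.6 ± 3.64% in ICR mice, Gm20388 33.2 ± 5.52% and 48.7 ± 4.18%, and 1700092K14Rik 10.4 ± 8.86% and 36.0 ± 11.6%, in the same order. In the higher direction, Pcsk6, a proprotein convertase, had 68.5 ± 3.64% in continuous mice (n = 5) and 53.8 ± 3.63% in ICR mice (n = 4), and Mical3, an actin-oxidizing enzyme, 44.4 ± 9.25% and 27.7 ± 5.57%. In the same order, Tm6sf1 had 43.6 ± 5.96% and 29.9 ± 6.96%, Ccdc124 50.9 ± 2.27% and 42.2 ± 3.71%, and Slc25a48, a mitochondrial carrier, 73.2 ± 10.5% and 54.4 ± 2.53%. Of single CpGs, that in Coro1c, an actin-binding coronin, stood at 25.5 ± 5.76% in continuous mice and 51.1 ± 2.77% in ICR mice, and that in Itgal, the alpha chain of the leukocyte integrin LFA-1, at 81.4 ± 3.33% in continuous mice and at 100% in each of 4 ICR mice. A CpG in the Mical3 cluster stood at 58.0 ± 4.09% and 26.8 ± 7.73%, one in Rnf220, a ubiquitin ligase, at 43.9 ± 4.49% and 16.3 ± 3.15%, and one in Fam129a at 100% in 6 continuous mice and at 88.1 ± 2.76% in 4 ICR mice. A CpG with no gene symbol, chr19:5696120, stood at 73.0 ± 3.52% and 87.7 ± 2.15%. These 6 CpGs had an adjusted p of 0.243.

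A single mouse decided how many features passed. Without LFCR 72, the continuous mouse of highest mean, 8340 CpGs (4.28%), 760 promoters (20.2%) and 3781 clusters (40.4%) were called, of which 7642, 716 and 3454 were lower. That is 19% of promoters called lower and 1.17% (44) called higher. Leaving out any 1 of the other 11 mice gave 0 CpGs, 0 to 2 promoters and 0 clusters. LFCR 72 stands out by the measure under test, so these counts say how the calls depend on it and are not evidence for a difference. The promoters then called with the largest differences included 2810433D01Rik, Mex3a, Agap2 and Scarb1 among the lower and Arhgap30, Itgal, Dok3 and Lat among the higher ones. At Agap2, a GTPase-activating protein, 68 CpGs stood at 8.5%, 10.2% and 13.0% in MCR mice and 9.9%, 11.4%, 33.4% and 48.5% in LFCR mice, against 34%, 27.6%, 37.1%, 44.8% and 46.1% in ICR mice. At Scarb1, the receptor for high-density lipoprotein, the levels were 28.3% and 34% in MCR mice and 27.8%, 19.9%, 56.8% and 52.4% in LFCR mice, against 50.1%, 59.8%, 53.5% and 63.9% in ICR mice. In both, LFCR mice 63 and 67 stood with MCR, and LFCR mice 69 and 72 at the ICR level.

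**Figure D5:**
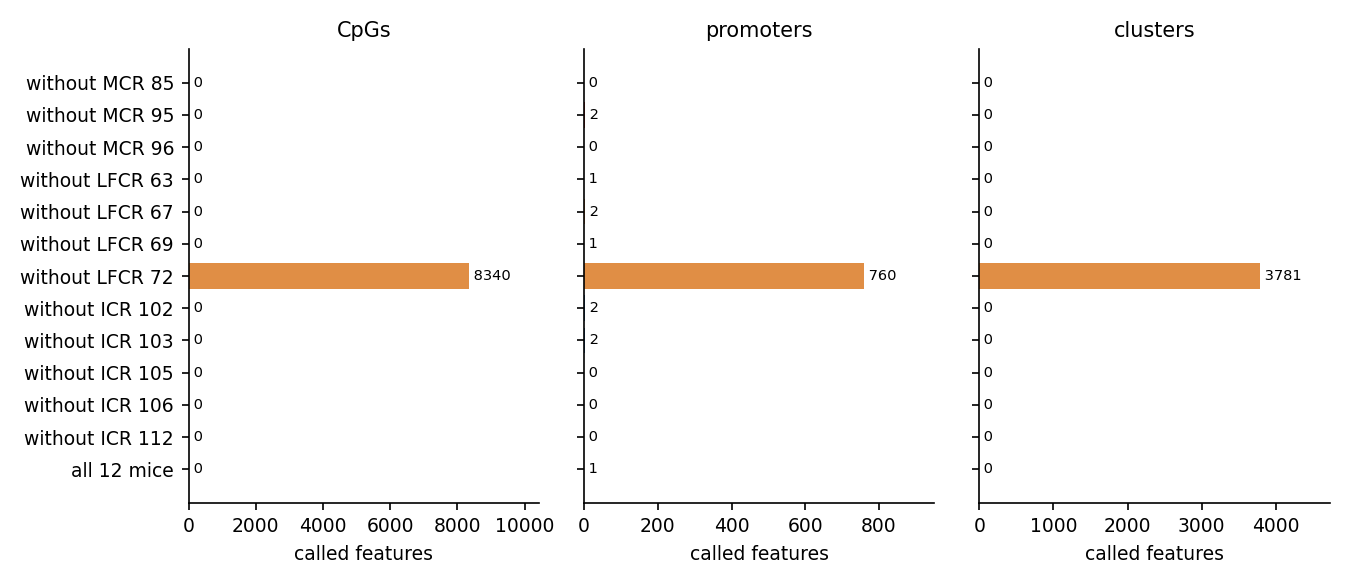
Number of CpGs (left), promoters (middle) and clusters (right) called at an adjusted p under 0.05 (horizontal axes, counts) when each mouse in turn is left out, and with all 12 mice. Leaving out LFCR 72 gives 8340, 760 and 3781 calls, and leaving out any other mouse at most 2.

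Each continuous diet was then set against ICR in a fit with LFCR, MCR and ICR as 3 groups. MCR minus ICR gave 264 called CpGs (0.135%, 246 lower and 18 higher), 53 called promoters (1.41%, 49 lower and 4 higher) and 2540 called clusters (27.2%), 24.9% lower (2327) and 2.28% higher (213). LFCR minus ICR gave 0 of each (0%), with 13065 CpGs, 279 promoters and 790 clusters at an unadjusted p under 0.05. The differences of the pair of diets from ICR share the ICR mice. Tested directly, MCR minus LFCR gave 1 CpG (0.000513%), 0 promoters (0%) and 0 clusters (0%), with 19251, 350 and 1084 at an unadjusted p under 0.05. The MCR calls were not stable either. Clusters fell to 0 without ICR 105, 106 or 112 or MCR 85 or 95, to 4 without MCR 96 and to 1016 without ICR 102. CpGs fell to between 0 and 2 without ICR 102, 105, 106 or 112 or LFCR 69 and to 8 without MCR 95. They were 108 without ICR 103, 418 without MCR 96, and 709, 1597 and 8538 without LFCR 67, 63 and 72. Promoters fell to between 1 and 5 without ICR 105, 106 or 112, LFCR 69 or MCR 95 or 96, to 8 without ICR 102, to 16 without MCR 85 and to 24 without LFCR 67. They were 324, 503 and 679 without ICR 103, LFCR 63 and LFCR 72. In the 2327 clusters called lower in MCR, the median level was 47.2%, 46.4% and 48.7% in MCR mice and 65.5%, 59.9%, 65.7%, 67.3% and 70.4% in ICR mice, which the calls themselves used. LFCR mice 63, 67, 69 and 72 stood at 49.3%, 50.5%, 62.9% and 69.2% there. In the 213 clusters called higher in MCR, the medians were 63.6%, 62.3% and 61.9% in MCR mice, 59.9%, 59.4%, 45.4% and 37.7% in LFCR mice, and 41.3%, 50%, 43.3%, 39.9% and 37% in ICR mice. Mice 63 and 67 thus lay near MCR and mice 69 and 72 near ICR in both sets.

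The promoters called for MCR minus ICR included L3mbtl1 (-18.34 points, SE 2.56, limma adjusted p = 0.0203), Nfam1, a signalling receptor of B cells, Zfp541, Camkk1, a calcium-dependent kinase upstream of other kinases, Phc2, a Polycomb repressor subunit, and Th, tyrosine hydroxylase. Camkk1 had 66.7% and 63.9% in MCR mice, against 87.2%, 77.1%, 88.6%, 87.3% and 91.5% in ICR mice (difference -21.04 points, SE 3.25, limma adjusted p = 0.0389), while LFCR mice had 82.5% to 86.7%. Nfam1 had 54.5%, 52.8% and 51.6% in MCR mice, against 74.5%, 65.7%, 79.1%, 76.4% and 77.1% in ICR mice (-21.58 points, limma adjusted p = 0.0490), and Phc2 41.4%, 41.0% and 38.6% against 59.8%, 50.7%, 58.1%, 60.5% and 56.2%. In the RefSeq window of Camkk1, the 1 tested CpG stood at 0.427% in continuous mice and 0.278% in ICR mice. The 2 tested CpGs in that of Phc2 averaged 0.479% and 1.08%, in the same order. Of the 4 promoters called higher, Kcnj11 differed by 12.92 points (SE 1.80, limma adjusted p = 0.0203), Foxf1 by 8.19 points, the glycosyltransferase B3gnt3 by 7.52 points, and Ifnlr1, the receptor of interferon lambda, by 4.16 points with only 2 MCR mice measured. Clusters of large difference for MCR lay in Cib4 (-42.44 points), Arhgap27 (-39.45 points) and Man1c1 (-38.95 points), and upward in P2rx7, an ATP-gated ion channel (40.65 points), in Bach2, a transcription factor of lymphocytes (45.33 points), and in Mafg (37.97 points). P2rx7 had 92.0%, 89.1% and 89.0% in MCR mice and 92.6%, 77.8%, 56.4% and 54.1% in LFCR mice, against 28.6%, 64.5%, 53.6%, 57.6% and 42.6% in ICR mice. In Rps6ka1, 2 clusters that hold 1st exon CpGs were called higher (25.59 and 19.50 points, limma adjusted p = 0.0309 and 0.0327) and 3 others lower (-20.60, -12.76 and -12.05 points, adjusted p = 0.0309, 0.0440 and 0.0323). At Ptpn1, a phosphatase that turns off the insulin receptor, a gene-body CpG stood at 66.7%, 70% and 76.9% in MCR mice, 40.6%, 37.2%, 18.2% and 35.5% in LFCR mice, and 32.4%, 35.6%, 28.6%, 34% and 30.0% in ICR mice (MCR minus ICR 39.10 points, SE 4.6, limma adjusted p = 0.0398).

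Gene groups that fit the tissue and the diets were described by their measured promoters and clusters. With all 12 mice, 0 promoters of any of the 20 groups passed the test, against 0.0266% of all promoters. The median promoter difference was -1.61 points over all 3766. Over all 9349 clusters 82.4% were in the lower direction, the median difference was -4.59 points, and 24.9% were called lower and 2.28% higher for MCR minus ICR. These are the shares beside which the cluster counts of each group stand. The MCR cluster calls depended on single mice, as described above. Clusters in the same gene were counted separately. Whether the share of a group differs from that of all clusters was not tested. Of 26 adipocyte and thermogenic genes, 9 promoters were measured, 6 in the lower direction (median -0.749 points). Cpt1b, which carries fatty acids into mitochondria, had 36.1%, 34.9% and 35.6% in MCR mice and 40.4%, 38.3%, 54.4% and 63.6% in LFCR mice, against 59.5%, 49.8%, 57.9%, 62.9% and 66.5% in ICR mice over 24 CpGs (difference -15.97 points, limma adjusted p = 0.161). Zfp423, a preadipocyte transcription factor, had 83.2 ± 2.65% in continuous mice and 87.8 ± 0.70% in ICR mice with no overlap. Of 67 adipocyte clusters, 18 (26.9%) were called lower and 2 higher for MCR minus ICR, a share near that of all clusters.

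Lipid synthesis had 5 measured promoters, 3 of them in the lower direction: Fasn, fatty acid synthase, had 21.8 ± 2.01% in continuous mice and 24.4 ± 1.2% in ICR mice, and Acacb, acetyl-CoA carboxylase 2, 15.6 ± 6.07% and 23.2 ± 4.77%. Insulin, IGF and mTOR signalling had 12, with 9 in the lower direction. Pik3cd, the leukocyte-enriched delta subunit of PI3-kinase, had 0.654%, 6.4% and 2.7% in MCR mice and 1.3%, 3.3%, 12% and 17.6% in LFCR mice, against 16.4%, 8.2%, 18.8%, 19% and 22.8% in ICR mice over 9 CpGs of the 5′UTR (difference -10.75 points, limma adjusted p = 0.161). A window beside them, chr4:149676040-149676339, minus strand (RefSeq, GRCm38.p6), is printed because 22 further tested CpGs, in capitals, lie in it. Of these, 21 had a lower mean in continuous mice, and the means of all 22 ran from 1.46% to 8.80% in continuous mice and from 3.36% to 18% in ICR mice.
Pik3cd: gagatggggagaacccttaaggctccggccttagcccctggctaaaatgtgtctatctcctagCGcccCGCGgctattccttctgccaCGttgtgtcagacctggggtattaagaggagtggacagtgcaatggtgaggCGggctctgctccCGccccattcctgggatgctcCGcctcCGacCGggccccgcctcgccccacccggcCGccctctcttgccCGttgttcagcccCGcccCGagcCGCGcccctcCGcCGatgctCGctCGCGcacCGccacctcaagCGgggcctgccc

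Fasting and energy sensing had 10 measured promoters, with 6 in the lower direction. Pck1, the first committed enzyme of gluconeogenesis, had 70.8 ± 8.4% in continuous mice and 80.1 ± 7.07% in ICR mice. Of the 19 clusters of the fasting genes, 4 (21.1%) were called lower for MCR, against 24.9% of all clusters, and 1 higher. The higher one, in the gene body of Ppard, a lipid-sensing nuclear receptor, had 87.6%, 83.2% and 87.7% in MCR mice and 85.7%, 87.4%, 73.2% and 62.5% in LFCR mice, against 66.7%, 75.4%, 70.8%, 69.1% and 66.0% in ICR mice (16.55 points, SE 4.84, limma adjusted p = 0.0342). The circadian clock had 3 promoters, 1 in the lower direction (median difference 0.00724 points). Of its 8 clusters, 3 (37.5%) were called lower for MCR, against 24.9% of all clusters, and 0 higher. The cluster in Nr1d1, the clock repressor REV-ERB alpha, had 5.4%, 5.9% and 3.4% in MCR mice and 6.4%, 5.0%, 16.4% and 23.9% in LFCR mice, against 22.5%, 15.3%, 29.2%, 24.4% and 27.1% in ICR mice (-18.79 points, SE 4.28, limma adjusted p = 0.0309). Inflammation and cytokine signalling had 8 promoters, 6 in the lower direction. Stat5a, which relays prolactin and cytokine signals, had 7.61 ± 7.03% in continuous mice and 18.1 ± 3.31% in ICR mice. Tested CpGs averaged 10.8% and 24.0% in 1 RefSeq window of Stat5a, in the same order, and 0% and 0% in another. Of the 21 clusters of inflammation genes 10 (47.6%) were called lower for MCR, against 24.9% of all clusters, and 0 higher. Hormone receptors had 9 of 15 clusters called lower for MCR, against the same 24.9%, and 0 higher. Of these, 2 lay in Thra, a thyroid hormone receptor: the larger difference there was -24.69 points (SE 6.08, limma adjusted p = 0.0309).

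Imprinted genes keep 1 parental allele methylated, so their control regions stand near the middle of the scale. All 14 measured promoters of 30 genes pointed lower (median -4.64 points), against 77.1% of all promoters, although Airn and Igf2r are measured by the same 3 CpGs and none passed the test. Their clusters followed all clusters in direction, with 36 of 44 (81.8%) lower and a median of -4.18 points, and 3 (6.82%) were called lower for MCR, against 24.9% of all clusters. H19 had 55.0%, 59.1% and 55.8% in MCR mice and 59.9%, 56.8%, 75.5% and 72.8% in LFCR mice, against 74.5%, 67.8%, 67.6%, 72.7% and 76.0% in ICR mice (difference -9.58 points, SE 3.86, limma adjusted p = 0.184). Gnas, with 188 CpGs, had 39.5 ± 3.00% in continuous mice and 42.9 ± 1.44% in ICR mice, and Magel2 44.3 ± 5.08% and 51.1 ± 2.14%. In a RefSeq window of Gnas the order was the other way: 8 tested CpGs averaged 39.6% in continuous mice and 36.7% in ICR mice. The Hox clusters had 32 measured promoters, 23 in the lower direction (median -1.06 points), and of their 69 clusters 16 (23.2%) were called lower and 5 (7.25%) higher for MCR. Hoxc12 stood at 4.25 ± 1.48% in continuous mice and 9.03 ± 1.78% in ICR mice without overlap, and Hoxa2 at 29.1 ± 5.11% and 38.7 ± 3.40%. Of 46 promoters of developmental transcription factors, which are mostly unmethylated islands, 39 pointed lower with a median of -0.735 points, and of their 108 clusters 5 were called lower and 5 higher for MCR (4.63% each, against 24.9% and 2.28% of all clusters).

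Promoters of the genes listed as lymphocyte genes leaned the other way, while clusters in the same genes did not. Of 11 promoters measured, 4 pointed lower, and the median difference was 2.39 points. Of 45 clusters, 32 (71.1%) pointed lower with a median of -4.23 points, and 11 (24.4%) were called lower and 4 (8.89%) higher for MCR, against 24.9% and 2.28% of all clusters. Without LFCR 72, 5 were called higher (Arhgap30, Dok3, Itgal, Lat and Rasgrp4) and Cd37 lower, against 1.17% and 19% of all promoters. Arhgap30, Dok3, Lat, Rasgrp4 and Cd37 had been put in this list with earlier results of these data known. The promoter counts and the promoter median of this list, with or without LFCR 72, are therefore no independent evidence of direction. Lat, the adaptor of the T cell receptor, had 69.5%, 69.7% and 64.9% in MCR mice and 68.1%, 67.7%, 45.4% and 33.6% in LFCR mice, against 40.1%, 56.0%, 39.0%, 37.0% and 38.3% in ICR mice (difference 17.73 points, SE 6.76, limma adjusted p = 0.171). LFCR 69 and 72 lay in the ICR range. Rasgrp4, in the lymphocyte list although it is an activator of Ras in mast and myeloid cells, had 58.6 ± 7.83% in continuous mice and 47.0 ± 4.87% in ICR mice. Dok3, an adaptor that dampens immune receptor signals, had 81.6%, 74.4% and 78.3% in MCR mice and 74.1%, 68.3%, 39.6% and 39.9% in LFCR mice, against 44.0%, 56.2%, 46.8%, 44.7% and 27.8% in ICR mice. The 3 tested CpGs of the window, in capitals, lie within 44 bases after the Dok3 start in the window chr13:55528489-55528788, minus strand (RefSeq, GRCm38.p6), shown as the counterpart of the lower windows; they stood at 70.5%, 64.8% and 51.1% in continuous mice and 44.6%, 42.8% and 37.4% in ICR mice.
Dok3: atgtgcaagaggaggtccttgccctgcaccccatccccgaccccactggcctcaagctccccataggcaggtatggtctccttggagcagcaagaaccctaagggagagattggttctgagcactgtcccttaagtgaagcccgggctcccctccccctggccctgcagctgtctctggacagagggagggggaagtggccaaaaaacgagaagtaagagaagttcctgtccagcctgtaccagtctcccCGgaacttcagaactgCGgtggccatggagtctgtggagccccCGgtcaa

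Averaged over the promoters measured in every library, the level of the lymphocyte list was between 30.4% and 43.4% in continuous mice and between 31.2% and 38.8% in ICR mice (8 promoters). The myeloid list had only 2 such promoters, Mpo and Irf8, at 63.5% to 77.1% in continuous mice and 71.2% to 76.8% in ICR mice. Luminal epithelium, with 5, stood at 21.3% to 36.5% in continuous mice and 28.5% to 34.8% in ICR mice. Basal epithelium, with 2, stood at 17.6% to 30.7% and 24.5% to 27.4% in the same order, endothelium, with 6, at 31.7% to 40.6% and 34.1% to 40.1%. Fibroblast and matrix genes, with 6, stood at 19.3% to 32.5% and 24.2% to 33.4%, and skeletal muscle, with 4, at 41.1% to 44.2% and 42.8% to 44.6%, in the same order. All 8 fibroblast and 7 of 8 luminal promoters pointed lower, against 77.1% of all promoters. So did 6 of 8 endothelial promoters, 3 of 5 of skeletal muscle, and 2 of 2 each of basal epithelium and of the myeloid list. Krt7, a luminal keratin, had 46.5 ± 9.88% in continuous mice and 58.8 ± 4.07% in ICR mice, Mxra8, a matrix protein, 18 ± 15.4% and 37.6 ± 9.69%, and Egfl7, secreted by endothelium, 55.3 ± 13.0% and 70.8 ± 9.78%. In 1 RefSeq window of Egfl7 the 1 tested CpG stood at 63.9% in continuous mice and 56.6% in ICR mice. In another, 3 tested CpGs averaged 35.7% and 39.5%, in the same order. The part of such markers in the differences at other genes was not tested.

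The other groups followed the general direction. DNA methylation enzymes had 4 promoters, all in the lower direction. Tet3, a methylcytosine oxidase, had 54.5 ± 2.25% in continuous mice and 58.1 ± 0.95% in ICR mice, and Dnmt3a, a de novo methyltransferase, 16 ± 5.49% and 21.2 ± 4.82%. In the RefSeq window of Tet3, 2 tested CpGs averaged 2.05% in continuous mice and 4.86% in ICR mice. The 1 tested CpG in that of Dnmt3a stood at 0.0916% and 0.809%, in the same order. Of 12 Wnt and Notch promoters, 10 pointed lower, with Axin2, a feedback inhibitor of Wnt signalling, at 28.8 ± 2.09% in continuous mice and 33.7 ± 2.65% in ICR mice. Of the 41 clusters of Wnt and Notch genes 14 (34.1%) were called lower for MCR, against 24.9% of all clusters, and 0 higher. A cluster in Notch1 had 12.2%, 12% and 9.2% in MCR mice and 11.4%, 11.7%, 34.4% and 43.5% in LFCR mice, against 36.5%, 28.5%, 42.9%, 46.5% and 49.2% in ICR mice (MCR minus ICR -29.57 points, SE 6.94, limma adjusted p = 0.0309). Tumour suppressors had 4 promoters in the lower direction (median -1.84 points), of which Sfrp2, a secreted Wnt antagonist, had 3.75 ± 1.69% and 5.45 ± 0.98%, continuous mice before ICR mice.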

How the data were processed

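DNA was digested with MspI and short fragments were amplified, per the labels' protocols, so CG-dense regions are over-represented. The submitters' processing notes name Bismark and mm10; other settings are not given in the sources used here. The authors deposited 1 table with the methylated fraction of reads at each CpG in each library, and a coverage signal, which the authors averaged over 21 libraries (times 21 it is whole at 100% of CpGs, within 1e-06). The table holds no read counts per library, so no interval per CpG was computed. Gene, feature and island labels are those of the deposited table.

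Fractions were turned into percent. Promoter and cluster levels are the mean deviation of a mouse from the row means over at least 0.5 of the set's CpGs, plus the set's mean; missing values shrink differences slightly. Groups were compared with limma 3.58.1 in R 4.3.3 (group means, moderated variances), in fits of the 2 groups or of LFCR, MCR and ICR, with Benjamini-Hochberg adjustment over all features; the fit was tested on simulated data. Mouse means were compared by exact permutation tests, adjusted within each classification. Classes by Control level use the mean of 5 Control mice. Promoter and cluster tests for single diets and MCR minus LFCR were added after seeing the data.

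The comparison, its members and the gene lists were chosen with earlier results of these data known. Named features are, per direction, 10 promoters, 5 clusters and 3 CpGs of largest difference among those called, filled by smallest p, and per list the 2 promoters of smallest p; Airn, Gnas, H19, Dok3, the features named without LFCR 72, the CpGs of printed windows and the clusters of Rps6ka1, Ppard, Nr1d1 and Notch1 were picked after their values were seen. Promoter sequences are from RefSeq, GRCm38.p6: all 6242 tested CpGs in its windows read CG (0 did not). Rgs8 is named without a sequence. Alternatives were coverage minimums of 5 and 20, values in all 12 libraries, the arcsine scale, other fits and region rules, and leaving out each mouse.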

Additional observations from a re-analysis of the deposited data

Results flagged for a closer look

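Of 106 groups of 4 to 10 mice tested for an outlying mouse, 3 held one by Dixon's 95% limit; chance gives about 1 in 20. At CpGs of 10 to 30% in Control, ICR 105 had a mean of 19.61%, against 18.86% in the next ICR mouse. In the Chmp6 promoter ICR 103 had 18.4%, against 23.4% in the next ICR mouse, and in the Galnt10 promoter ICR 103 had 84.3%, against 75.4% in the next.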

How the results depend on the processing

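No paired analysis was possible because the groups share no replicate numbers. Promoter calls for continuous minus ICR, 1 as reported, were 0 with values in all 12 libraries, on the arcsine scale, with 21 libraries in the fit, with limma's trend and robust options and with at least 10 CpGs per promoter, 2 with the 1st exon left out, and 5 with LFCR and MCR as separate terms; CpG calls, 0 as reported, were 3 on the arcsine scale and 1 with 21 libraries. Leaving out 1 mouse gave 0 to 8340 CpGs, 0 to 760 promoters and 0 to 3781 clusters, and a mean difference between -5.27 and -3.90 points. For MCR minus ICR it gave 0 to 8538 CpGs, 1 to 679 promoters and 0 to 3685 clusters, and the 2 groups alone gave 14933 CpGs, 853 promoters and 4134 clusters; for LFCR minus ICR it gave 0 to 1 CpG, 0 promoters and 0 clusters. Without the 1st exon the Wfs1 difference was 0.185 points and the Kcnj11 difference -0.964 points, since fewer CpGs enter; the other 18 named promoters, the 10 clusters and the 6 CpGs kept their direction under every alternative that gave a value. The cause of the other changes was not tested. Arms of 3 to 5 mice and the unknown depth of each library limit the precision.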
